A study of Mus musculus with 1 sample.

Results

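The genes described here are 5 cystatins (*Cst9*, *Cst12*, *Cst8*, *Cst3* and *Cstb*) and 2 beta-defensins (*Defb19* and *Defb36*), 7 of the 22631 genes in the count matrix of a control mouse fetal testis. They were chosen by measured levels in these same data, because *Cst9* and *Defb19* stood among the leading genes of the Sertoli cells (SCs), so their levels by cell type are given as a description and no test was made on them. The library came from trypsin-dissociated whole testes at E14.5 as labelled (the design text names both E13.5 and E14.5). It is labelled WT. Per the methods of the study, controls carried *loxP*-flanked *Nr5a1* alleles (L2/L2) without Cre on a mixed C57BL/6 and 129/SvPass background. The labels give 12 controls as the source of the cells, and no barcode is tied to a fetus. The study set such controls against mutants lacking *Nr5a1*, which encodes a nuclear receptor of gonadal and adrenal cells, in SCs. The mutant library is not analysed here. With 1 library there is no replicate: intervals are exact 95% intervals that cover counting error only, and nothing here says how fetuses would vary.

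Cystatins are small inhibitors of cysteine proteases such as the cathepsins. *Cst3* encodes cystatin C, a secreted inhibitor made by many cell types, and *Cstb* encodes cystatin B, which stays inside the cell. *Cst9* encodes testatin, known from the fetal testis, and *Cst8* encodes CRES, known from the epididymis and spermatogenic cells; both belong to a subgroup of cystatin-related genes of the reproductive tract whose proteins lack part of the consensus sites for inhibiting these proteases. *Cst12* is a gene of the same reproductive subgroup. Beta-defensins are short cysteine-rich secreted peptides first known as antimicrobials, and many of their genes are active in the male reproductive tract. SCs are the somatic cells that surround the germ cells in the testis cords, and Leydig cells (LCs) lie between the cords and make androgens.

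After filtering, 3815 cells remained with a median of 12026 unique molecular identifiers (UMIs, each counting 1 captured RNA molecule) and a range of 2299 to 52793. Cells were clustered with all cystatin and beta-defensin genes set aside, so that the members could not shape the clusters, and clusters were named from lists of marker genes. The doublet call made before clustering did not set these genes aside, so they could bear on which cells were removed. The 860 Sertoli-like cells (22.5% of cells) formed a single cluster in which 10 of 10 Sertoli markers were detected in at least 25% of cells. The Leydig-like class held 312 cells in 2 clusters, described apart where they differ. The other named classes were interstitial-like (1352 cells), peritubular myoid-like (516), germ-like (244), coelomic epithelium-like (152), perivascular-like (104), endothelial-like (42), immune-like (36) and erythroid-like (34). Clusters numbered 10, 11 and 15, with 85, 61 and 17 cells, met no naming rule. Levels are UMIs of a gene per 1000000 UMIs of a class (CPM); each molecule is counted once from its 3′ end, so no gene length was divided out.

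Of the 7 members, 6 lie on chromosome 2 in the GRCm38 build, in a pair of gene blocks separated by 3583 kb. In the cystatin block, 9 genes span 125 kb in the order *Cstl1*, *Cst11*, *Cstdc1*, *Cst12* (chr2:148789361-148793546, plus strand), *Cst8* (chr2:148798785-148805595, plus strand), *Cst13*, *Cst9* (chr2:148835147-148838738, plus strand), *Cstdc2* and *Cst3* (chr2:148871722-148875692, minus strand). The gap from *Cst12* to *Cst8* is 5.24 kb, and that from *Cst8* to *Cst9* is 29.6 kb. The beta-defensin block holds 11 genes in 164 kb, among them *Defb19* (chr2:152576086-152580312, minus strand) and *Defb36* (chr2:152604327-152612729, plus strand), which are 24.0 kb apart. *Cstb* lies on chromosome 10 (chr10:78425669-78427622, plus strand). The annotated transcripts of the 7 members share 0 stretches of 50 bases with transcripts of other genes.

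The sequence just before the annotated start is shown for *Cst9*, *Cst12* and *Defb36*, whose UMIs were mostly in Sertoli-like cells, and for *Cst8*, which was high in both Sertoli-like and Leydig-like cells. The stretches come from RefSeq promoter windows (GRCm38.p6, each from 250 bases before to 50 after a start; 5 of the 7 members had a window), trimmed at the earliest annotated start of the gene and given 5′ to 3′ on the gene's strand, which is the plus strand for these 4 genes.
*Cst9*, chr2:148834897-148835146: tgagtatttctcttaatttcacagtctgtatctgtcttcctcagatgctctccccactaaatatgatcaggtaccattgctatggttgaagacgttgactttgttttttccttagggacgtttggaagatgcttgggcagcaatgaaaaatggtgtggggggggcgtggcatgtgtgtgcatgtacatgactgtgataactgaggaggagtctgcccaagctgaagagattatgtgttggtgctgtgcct
*Cst12*, chr2:148789115-148789360: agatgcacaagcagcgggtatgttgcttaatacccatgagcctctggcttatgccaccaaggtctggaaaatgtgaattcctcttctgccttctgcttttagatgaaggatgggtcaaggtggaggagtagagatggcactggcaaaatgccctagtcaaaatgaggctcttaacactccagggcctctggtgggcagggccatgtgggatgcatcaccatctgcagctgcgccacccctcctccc
*Cst8*, chr2:148798589-148798784: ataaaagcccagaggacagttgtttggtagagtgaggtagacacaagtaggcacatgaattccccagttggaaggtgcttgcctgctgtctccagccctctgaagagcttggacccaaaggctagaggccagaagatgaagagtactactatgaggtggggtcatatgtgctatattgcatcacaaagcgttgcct
*Defb36*, chr2:152604077-152604326: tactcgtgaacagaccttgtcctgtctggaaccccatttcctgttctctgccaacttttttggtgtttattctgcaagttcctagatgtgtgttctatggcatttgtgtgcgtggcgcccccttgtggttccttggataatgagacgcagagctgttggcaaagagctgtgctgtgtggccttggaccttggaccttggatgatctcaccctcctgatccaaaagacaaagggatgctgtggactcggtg

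The 4 short motifs searched were chosen with the levels known and were looked for on both strands of the 300-base windows. The letters CAAGGTCA, of the type bound by the nuclear receptor NR5A1, were in 512 of 32851 windows (1.56%) and in 1 of the 5 members with a window, *Cst8*. There they lie 48 to 41 bases before the RefSeq start, but 6 bases after the earliest annotated start and inside 1 annotated exon. The stretch is shown with these letters in capitals, and whether NR5A1 acts on *Cst8* was not tested.
*Cst8*, chr2:148798780-148798809: tgcctgggcttCAAGGTCAggacttacata
A motif of the type bound by SOX factors, spelled AACAAT, was in 10.7% of all windows. The motif of the type bound by GATA factors, spelled AGATAA, was in 11.2% of windows, and the core promoter motif spelled TATAAA was in 13.6% of windows. None of these other exact spellings was in any of the 5 member windows. Variant spellings that the same factors may bind were not searched, so the windows are not shown to lack SOX-type or GATA-type sites. A match is a stretch of letters, not a bound site, and no match says nothing beyond these windows.

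The members did not share a single pattern. Among the 10 named classes, *Cst9*, *Cst12*, *Defb19* and *Defb36* had their highest level in Sertoli-like cells, *Cst8* was highest in Leydig-like cells, and *Cst3* and *Cstb* were highest in immune-like cells. Of all UMIs of the gene in kept cells, Sertoli-like cells held 96.2% for *Cst9*, 96.4% for *Cst12*, 95.4% for *Defb36* and 92.3% for *Defb19*, but 44.9% for *Cst8*, 39.7% for *Cst3* and 20.9% for *Cstb*. A 4-fold excess in Sertoli-like cells over all other named classes, with 5 CPM added to both sides, was met by 4 of the 7 members (*Cst9*, *Cst12*, *Defb19* and *Defb36*) and by 4.55% of the 7165 genes compared; since this contrast chose the members, nothing is read from the count. In Leydig-like cells, 1 of the 5 members that could be compared (*Cst8*) met it, against 2.64% of 6892 genes, and nothing is read from that count either.

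**Figure D1:**
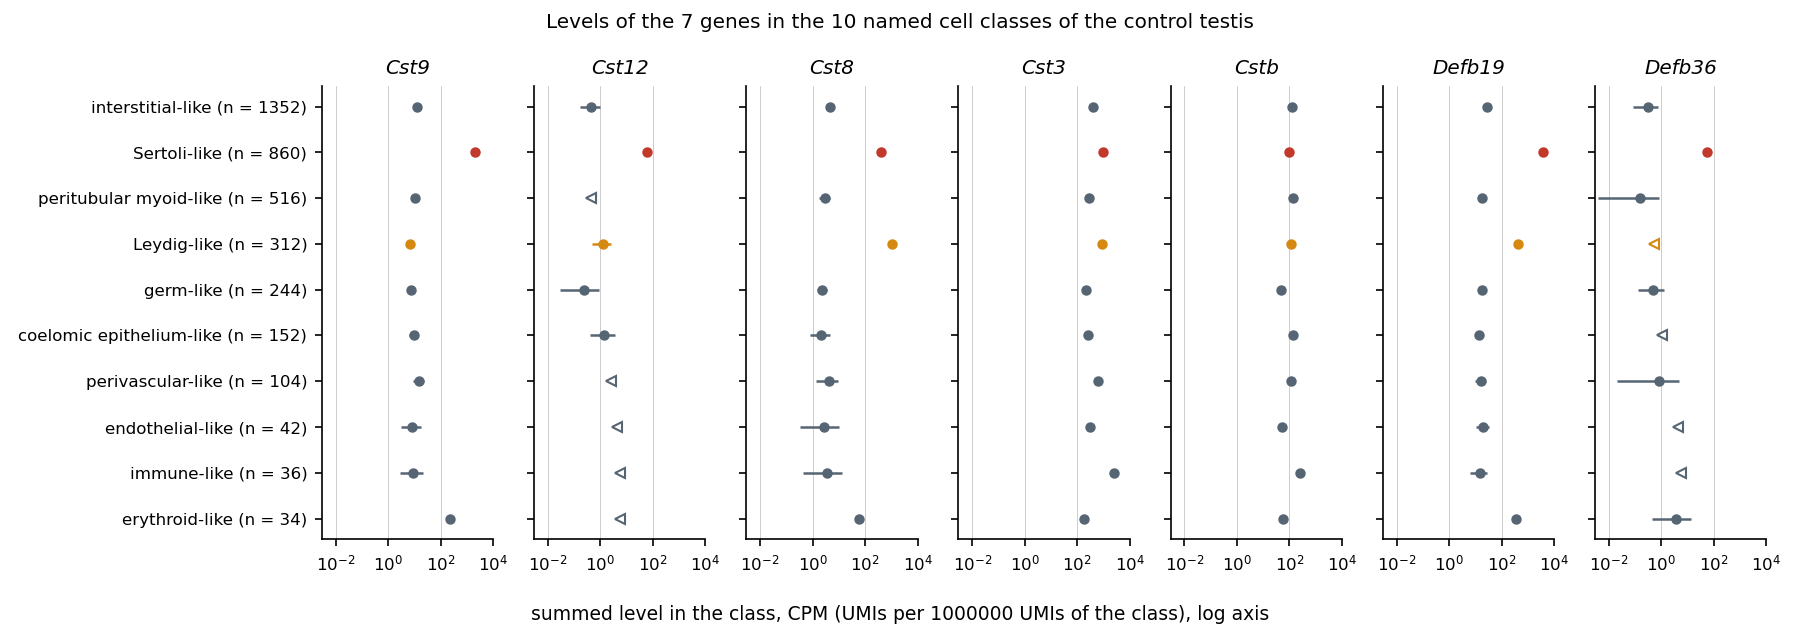
Level of each of the 7 genes in the 10 named classes of the control library, in CPM on a log axis, with bars for the exact Poisson 95% interval (counting error only); open triangles mark 0 UMIs and stand at the CPM that 3 counts would give. *Cst9* stood at 2051 CPM and *Defb19* at 3655 CPM in Sertoli-like cells, while *Cst8* was highest in Leydig-like cells (1102 CPM) and *Cst3* in immune-like cells (2525 CPM).

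*Cst9* and *Defb19* were read in nearly every Sertoli-like cell. A Sertoli-like cell held from 0 to 114 UMIs of *Cst9* with a median of 29, and the class level was 2051 CPM (2027 to 2076). For *Defb19* the cells held from 0 to 164 UMIs with a median of 52.5, and the class level was 3655 CPM (3622 to 3688). On the same scale *Amh*, the hormone of SCs that removes the Müllerian ducts, stood at 1984 CPM, and the other SC genes used as comparators stood at 2762 CPM for *Clu*, 2072 for *Ptgds*, 333 for *Sox9* and 310 for *Dhh*. All of these comparators were also among the markers that named the Sertoli-like class, and they were not set aside from the clustering. When every cell was thinned to 5000 UMIs, which left out 15 of the 860 cells, *Cst9* was read in 99.4% of cells (98.6 to 99.8; 99.5% unthinned) and *Defb19* in 99.5% (98.8 to 99.9; 99.4% unthinned). The next class in order was erythroid-like for *Cst9*, at 222 CPM, or rete testis-like when each cell was classed by itself. For *Defb19* it was Leydig-like, at 405 CPM (389 to 422), or erythroid-like when each cell was classed by itself. As reported, the erythroid-like level of *Defb19* was 367 CPM (318 to 421), which overlapped the Leydig-like level.

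The erythroid-like level rested on few cells. Of the 34 cells, 3 held 93 of the 123 *Cst9* UMIs (40, 32 and 21), and 3 held 175 of the 203 *Defb19* UMIs (104, 56 and 15). Without that class the next highest class for *Cst9* was perivascular-like, at 14.8 CPM, which overlapped the interstitial-like level of 12.1 CPM. From perivascular-like (14.8 CPM) down to Leydig-like (6.95 CPM), each class overlapped the one above it for *Cst9*. No expression is read from these low levels. In barcodes with fewer than 200 genes, *Cst9* stood at 8.51 CPM (4.40 to 14.9) and *Defb19* at 18.4 CPM (12.0 to 27.0). Of the UMIs in those barcodes, 46.8% were of hemoglobin genes and 49.2% of mitochondrial genes. *Cst3*, read in every class, stood at only 7.09 CPM there, so CPM in those barcodes is not comparable with CPM in the cell classes.

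Depth and the cell filters moved the shares outside SCs. Among germ-like cells, whose median depth was 35868.5 UMIs against 14309.5 in Sertoli-like cells, *Defb19* was read in 35.7% of cells unthinned and in 5.0% (2.61 to 8.57) at 5000 UMIs. The thinned share also moved with the cell filters, to 13.4% (9.62 to 18.0) with no doublet removal and 8.67% with cells kept up to 5 median absolute deviations. *Cst9* went from 17.2% to 2.50% of germ-like cells in the same step. In interstitial-like cells, with a median of 9262 UMIs, *Defb19* was read in 15.6% of cells unthinned and 10.2% thinned.

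*Cst12* and *Defb36* had low levels that were nearly all in Sertoli-like cells. *Cst12* stood at 57.8 CPM (53.8 to 62.1) in Sertoli-like cells, with 0 to 27 UMIs per cell and a median of 0. Its next level was 1.42 CPM in coelomic epithelium-like cells, and it had 0 UMIs in 5 of the 10 classes, among them 516 peritubular myoid-like cells, so that up to 0.581% of such cells could carry a UMI. Outside the named classes it stood at 24.7 CPM (8.01 to 57.6) in the 17 cells of cluster 15 and 17.9 CPM in cluster 11, on 5 and 4 UMIs. *Defb36* stood at 55.3 CPM (51.3 to 59.5) in Sertoli-like cells, with 0 to 11 UMIs per cell and a median of 0. It had 2 UMIs in erythroid-like cells, both in 1 cell, and 0 of 312 Leydig-like cells held it, so that up to 0.962% of such cells could carry a UMI. For genes this low, cells without a UMI may still hold the RNA. At 5000 UMIs, 18.0% of Sertoli-like cells (15.5 to 20.7) had *Cst12* and 19.5% (16.9 to 22.4) had *Defb36*; unthinned the shares were 33.8% and 39.2%. The gap of *Cst12* to the next class depended on how cells were classed. It was 5.35 on the log2 scale as reported and 0.079 (-0.36 to 0.55) when each cell was classed by itself, where cells scored as rete testis-like came next, and 2.75 with cells kept up to 5 median absolute deviations, where immune-like cells came next.

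*Cst8* was read in both Leydig-like and Sertoli-like cells. Leydig-like cells held 0 to 141 UMIs of *Cst8* with a median of 10, giving 1102 CPM (1075 to 1130), and Sertoli-like cells held 0 to 31 with a median of 6, giving 417 CPM (406 to 428). Its intervals did not overlap, and the Leydig-like level was 1.40 higher on the log2 scale. At 5000 UMIs *Cst8* was read in 82.0% of Sertoli-like cells (79.3 to 84.5, and 96.6% unthinned). In the pooled Leydig-like class the share was lower, at 68.0% (62.4 to 73.1, and 74.4% unthinned). This order came from pooling unlike clusters. Leydig-like cluster 8 had *Cst8* in 100% of thinned cells at 1687 CPM. Leydig-like cluster 6 had it in 45.0% at 323 CPM, below the Sertoli-like level. Erythroid-like cells followed at 59.6 CPM, with 30 of their 33 *Cst8* UMIs in 3 cells, and the other 7 classes stood between 2.13 and 4.60 CPM.

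*Cst3*, the general secreted inhibitor, was read in every class. Its level was 2525 CPM (2394 to 2662) in immune-like cells, 913 CPM (897 to 930) in Sertoli-like cells and 878 CPM (854 to 902) in Leydig-like cells. The ratio of the Sertoli-like to the Leydig-like level was 1.04 (1.01 to 1.08, counting error only), and the Leydig-like clusters lay on both sides of the Sertoli-like level. Below them came perivascular-like (620 CPM), interstitial-like (387), endothelial-like (318), peritubular myoid-like (276), coelomic epithelium-like (267), germ-like (214) and erythroid-like cells (188). Sertoli-like cells held 0 to 53 UMIs of *Cst3* with a median of 12, and 97.8% of them (96.5 to 98.6) had it at 5000 UMIs.

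*Cstb*, the intracellular inhibitor, went against the Sertoli label. Sertoli-like cells ranked 7 of the 10 classes at 92.1 CPM (86.9 to 97.5), with 0 to 9 UMIs per cell and a median of 1. Immune-like cells were highest at 253 CPM (212 to 298). The 5 classes between them, from coelomic epithelium-like (136 CPM) to perivascular-like (115 CPM), overlapped one after the other, perivascular-like and Sertoli-like cells overlapped too, and germ-like cells were lowest at 47.0 CPM. At 5000 UMIs it was read in 36.4% of Sertoli-like cells (33.2 to 39.8; 70.2% unthinned).

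The Leydig-like levels of *Cst8* and *Defb19* did not keep the ratio to *Cst9* that Sertoli-like cells had. In Sertoli-like cells there were 1.78 *Defb19* UMIs for each *Cst9* UMI (1.76 to 1.81). The ratio was higher, without overlap, in interstitial-like (2.35, 1.95 to 2.85) and germ-like cells (2.53, 1.87 to 3.48). All intervals of this ratio take UMIs as independent and so are too narrow where single cells hold many. A single germ-like cell held 33 of the 152 *Defb19* UMIs of its class, and a single interstitial-like cell 28 of 379. The other named classes besides Leydig-like overlapped the Sertoli-like interval, among them peritubular myoid-like cells at 1.58 (1.16 to 2.14). So did cluster 10 and the barcodes with fewer than 200 genes, at 2.17 (1.06 to 4.71) in the latter. The ratio was lower, without overlap, in cluster 11 (1.33) and cluster 15 (0.208, 0.094 to 0.417). In Leydig-like cells it was 58.3 (42.7 to 81.9). The ratio of *Cst8* to *Cst9* was 0.203 in Sertoli-like and 159 (116 to 222) in Leydig-like cells. Both Leydig-like ratios rest on 40 *Cst9* UMIs and pool clusters that differ. Cluster 6 held 258 *Defb19*, 798 *Cst8* and 13 *Cst9* UMIs, and cluster 8 held 2075, 5551 and 27. *Cst9* itself stood at 6.95 CPM in Leydig-like cells, the lowest of the 10 named classes, but overlapped the germ-like level of 7.11 CPM. It stood at 5.27 CPM in cluster 6 and 8.20 CPM in cluster 8. The 5 SC comparator genes did not behave alike in Leydig-like cells. Among the 312 cells *Clu*, which encodes a secreted chaperone, had 2549 UMIs, *Ptgds* 131, *Sox9* 55, *Amh* 24 and *Dhh*, a signalling ligand sent by SCs, 9. As a share of each gene's UMIs in kept cells the order differed: 6.47% for *Clu*, 1.14% for *Sox9*, 0.474% for *Ptgds*, 0.217% for *Dhh* and 0.0918% for *Amh*.

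Both genes differed between the pair of Leydig-like clusters. The 131 cells of cluster 8 were led by genes such as *Cyp11a1* and *Cyp17a1*, which encode steps of androgen synthesis; the 181 cells of cluster 6 met the Leydig marker rule but were led by other genes, among them *Nppc* and *Vsnl1*. *Cst8* stood at 1687 CPM in cluster 8, where every cell had it unthinned, and at 323 CPM in cluster 6, where 55.8% had it. *Defb19* stood at 630 CPM in cluster 8 and 105 CPM in cluster 6. *Cst3* followed the same order with a smaller gap, at 1024 and 682 CPM, and *Cstb* the opposite order, at 104 and 139 CPM. *Cyp17a1* stood at 15276 and 4074 CPM and *Nr5a1* at 263 and 175 CPM in the same clusters. *Clu* had the order of *Defb19*, at 725 CPM in cluster 8, where 97.7% of cells had it, and 66.5 CPM in cluster 6. *Ptgds* stood at 32.8 and 9.32 CPM, and *Sox9* had the opposite order at 3.65 and 17.4 CPM.

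Within cluster 6, *Cst8* went with *Cyp17a1*. This split was chosen after the values were seen. At 5000 UMIs, 68 of its cells had no *Cyp17a1* UMI, and *Cst8* was read in 7.35% of these (2.43 to 16.3) against 67.9% (58.4 to 76.4) of the 112 cells that had one. *Defb19* was read in 14.7% of the cells without *Cyp17a1* and 41.1% of those with it. *Cstb* was read in 51.5% and 48.2%, shares whose intervals overlapped. All 129 cells of cluster 8 left after thinning had both *Cyp17a1* and *Cst8*, with a mean of 8.04 *Cst8* UMIs, and 82.9% had *Defb19*.

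Across the 180 thinned cells of cluster 6, which share 1 library and 1 depth, Spearman's rho of *Cst8* was 0.762 with *Cyp17a1*, 0.611 with *Insl3*, a peptide hormone of LCs, and 0.609 with *Star*, which carries cholesterol into mitochondria. With *Defb19* it was 0.40. Across the 129 cells of cluster 8, rho of *Cst8* with the same 4 genes lay between -0.129 and 0.155. These are descriptions of cells of 1 pool, not of replicates.

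**Figure D2:**
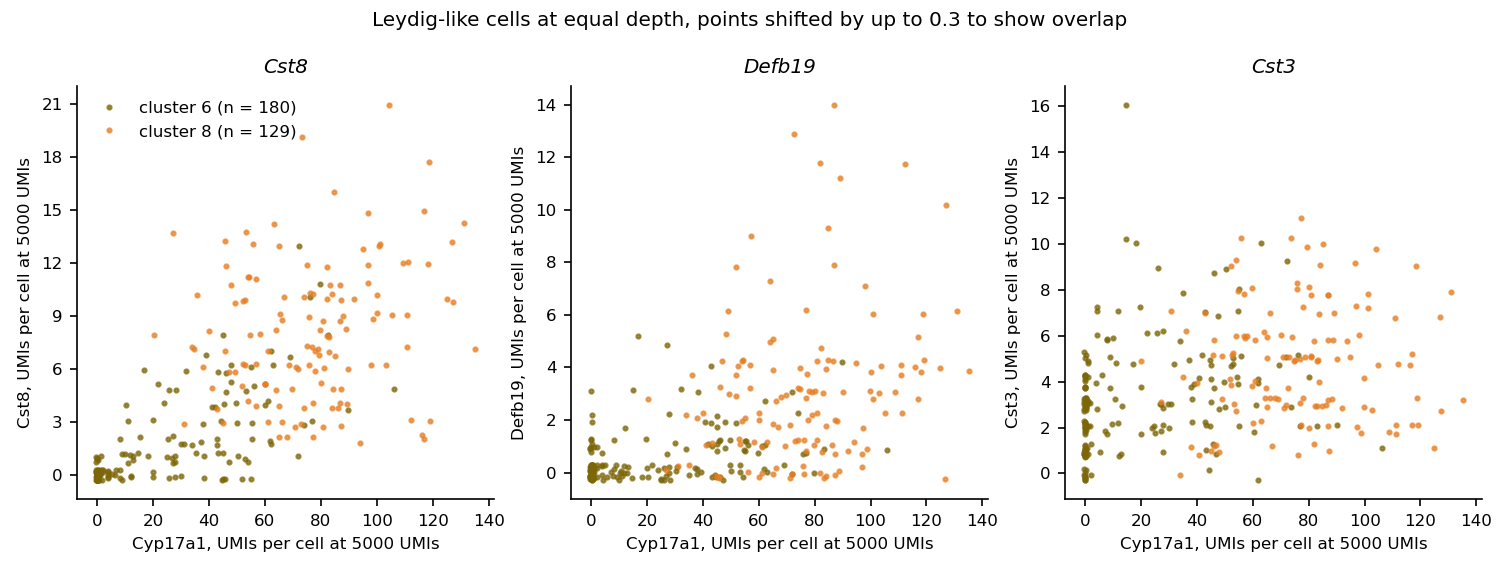
UMIs of *Cst8*, *Defb19* and *Cst3* per Leydig-like cell against UMIs of *Cyp17a1*, each cell thinned to 5000 UMIs, with points coloured by cluster and each point 1 cell. In the 68 cells of cluster 6 with no *Cyp17a1* UMI, *Cst8* was read in 7.35%, and in cluster 8 it was read in all 129 cells.

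Co-detection of *Cst9* and *Defb19* in Sertoli-like cells was that of a pair of genes that are each nearly always read. At 5000 UMIs, 836 of 845 cells had both (98.9%, 98.0 to 99.5), and the product of their shares was also 98.9%. Of the other 9 cells, 5 lacked *Cst9* and had *Defb19*, and 4 lacked *Defb19* and had *Cst9*, so no cell lacked both. Their UMIs had a Spearman's rho of 0.279, the highest of any pair of members. *Cst9* with *Cst3* followed at 0.172 and *Cst9* with *Cst8* at 0.108, and the other pairs lay between -0.0884 and 0.0759. *Cst9* and *Defb19* were also the members with the highest mean UMIs per cell, and counting noise weighs more on the sparser pairs. Beside the value of 0.279, rho of *Defb19* was 0.186 with *Ptgds* and 0.179 with *Amh*. For *Cst9* it was -0.0174 with *Ptgds* and 0.0652 with *Amh*. Values this low are given as descriptions only.

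The pair of low genes was found in the same cells slightly more often than their shares gave, within counting error. *Cst12* and *Defb36* were both read in 34 cells (4.02%, 2.80 to 5.58), and the product of their shares was 3.51%. Of the 152 cells with *Cst12*, 22.4% had *Defb36* (16.0 to 29.8), against 18.9% (16.1 to 22.0) of the 693 without it. Counting *Cst9*, *Cst12*, *Cst8*, *Defb19* and *Defb36* together, 505 of 845 Sertoli-like cells (59.8%) had 3 of the 5 genes, 206 (24.4%) had 4, and 29 (3.43%) had all 5; 102 had 2, 3 had 1, and 0 had none.

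In Leydig-like cells the picture was different for *Cst8* and *Defb19*. Both were read in 146 of 309 cells (47.2%, 41.6 to 53.0), and the product of their shares was 35.9%. *Defb19* was read in 69.5% of cells with *Cst8* (62.8 to 75.7) and in 17.2% of cells without it (10.3 to 26.1). The pooled class mixes clusters that differ in both genes. Within cluster 6, 48.1% of cells with *Cst8* and 17.2% of those without it had *Defb19*.

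The members also differed in how evenly Sertoli-like cells shared their UMIs. At 5000 UMIs the Fano factor, the variance divided by the mean, which is 1 for pure counting, was 2.89 for *Cst9* (mean 10.2 UMIs) and 4.16 for *Defb19* (mean 18.3), beside 3.48 for *Amh* (mean 9.88). *Cst12*, with a mean of 0.298 UMIs, had a Fano factor of 2.42 and up to 9 UMIs in a cell, and the top 84 cells held 73.0% of its UMIs. *Defb36*, with a mean of 0.279, had 1.64 and up to 5 UMIs in a cell. By comparison *Cst11* (mean 0.151) had 1.04, *Cstb* (mean 0.452) 0.982, *Cst8* (mean 2.08) 1.40 and *Cst3* (mean 4.41) 1.38. So *Cst12* was more clumped over cells than other members of low mean, with 8 cells of at least 5 UMIs.

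**Figure D3:**
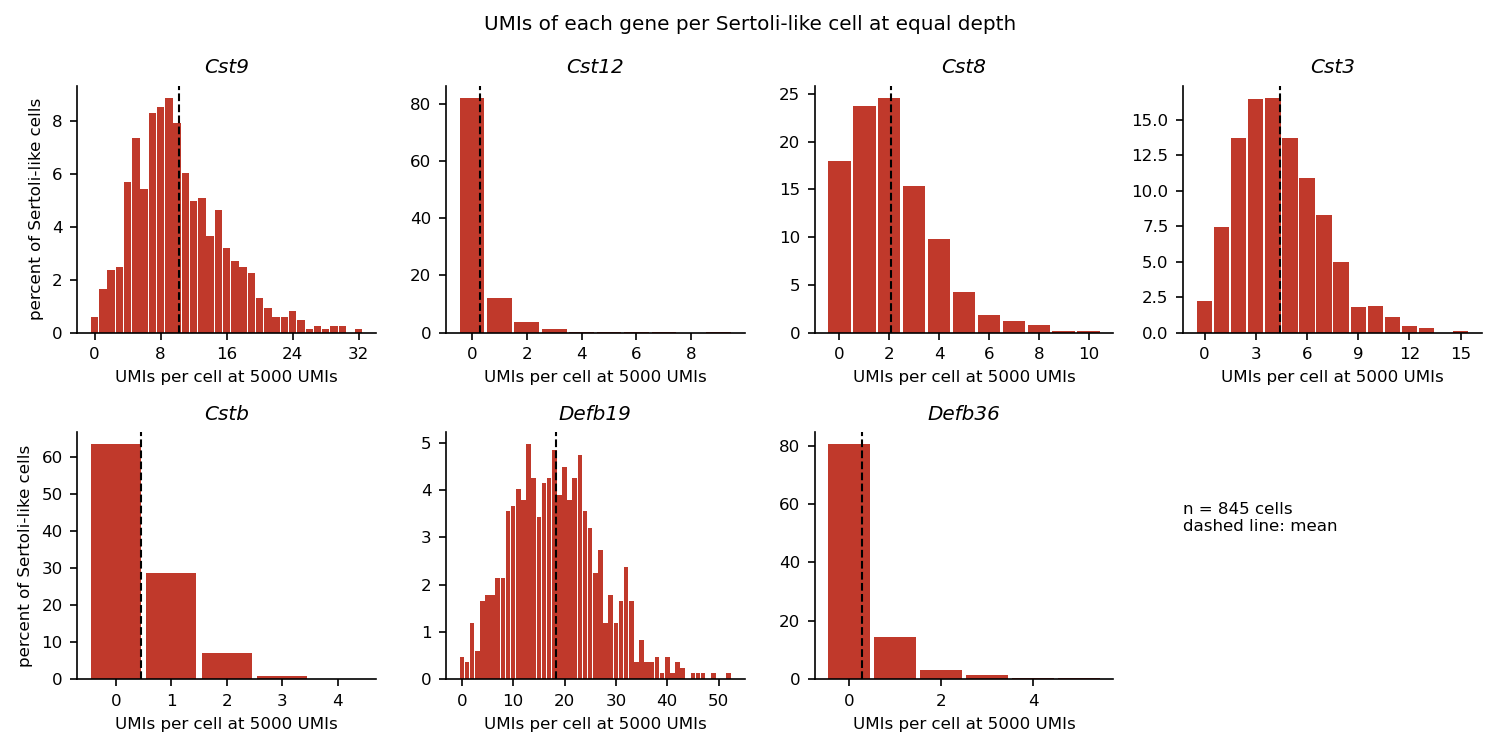
Distribution of the UMIs of each gene over the 845 Sertoli-like cells thinned to 5000 UMIs (bars, percent of cells; dashed line, mean). *Cst9* and *Defb19* spread around means of 10.2 and 18.3 UMIs, while most cells had 0 UMIs of *Cst12* and *Defb36* and a few *Cst12* cells reached up to 9.

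Within Sertoli-like cells, *Cst12* and *Defb36* stood higher, and *Cst8* and *Cst9* lower, in cells scored as G2M than in cells scored as G1. The phase score gave 468 G1 cells, 204 S cells and 188 G2M cells with median depths of 13103.5, 15542.5 and 18648.5 UMIs. Free RNA could enter such scores, and its part was not tested. *Cst8* stood at 486 CPM in G1, 388 in S and 324 in G2M, a G2M to G1 ratio of 0.667 (0.622 to 0.714). *Cst9* stood at 2230, 2028 and 1766 CPM, a ratio of 0.792. The SC comparator genes were spread around it. Their ratios were 0.783 for *Sox9*, 0.786 for *Ptgds*, which encodes a prostaglandin synthase of SCs, and 0.833 for *Amh*. For *Dhh* the ratio was 0.934 (0.867 to 1.01), and for *Clu* 0.947. *Defb19* differed less, at 3782, 3760 and 3344 CPM, a ratio of 0.884.

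*Cst12* went the other way, with 49.9, 56.4 and 72.7 CPM and a ratio of 1.46 (1.23 to 1.72). *Defb36* did likewise, with 48.1, 53.2 and 69.4 CPM and a ratio of 1.44 (1.21 to 1.71). At 5000 UMIs the G1 and G2M shares overlapped for both genes: 16.6% (13.3 to 20.3) and 24.9% (18.8 to 31.7) for *Cst12*, and 17.7% (14.3 to 21.5) and 25.4% (19.3 to 32.3) for *Defb36*. *Cst3* did not differ between G1 and G2M beyond counting error (ratio 1.02, 0.981 to 1.07). Its S level was lower, at 804 CPM (773 to 836) against 940 in G1 and 963 in G2M. *Cstb* had a G2M to G1 ratio of 0.822 (0.712 to 0.946). All of these intervals take UMIs as independent, and so are too narrow for genes that vary over cells beyond counting. In Sertoli-like cells *Cst9*, *Defb19*, *Cst12*, *Defb36*, *Cst8* and *Cst3* did so at 5000 UMIs. The Fano factor of *Defb36* was only 1.16 at 3000 UMIs.

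**Figure D4:**
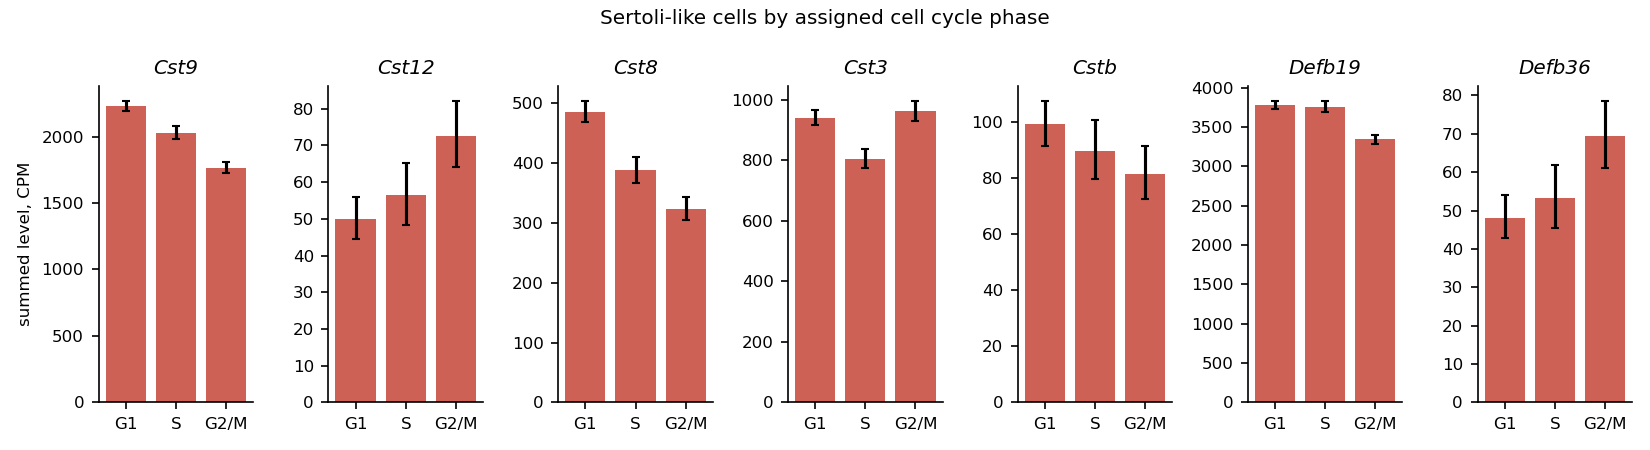
Level of each member in Sertoli-like cells scored as G1 (468 cells), S (204) and G2M (188), in CPM, with bars for the exact Poisson 95% interval (counting error only). *Cst8* went from 486 to 324 CPM and *Cst9* from 2230 to 1766 CPM between G1 and G2M, while *Cst12* went from 49.9 to 72.7 CPM and *Defb36* from 48.1 to 69.4 CPM.

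The neighbours of the members in the cystatin block were uneven. *Cstdc1*, next to *Cst12*, stood at 191 CPM in Sertoli-like cells, was read in 85.3% of them unthinned, and had 95.6% of its UMIs there. *Cst11* stood at 29.8 CPM with 96.7% of its UMIs in Sertoli-like cells. *Cst13*, between *Cst8* and *Cst9*, had 4.42 CPM in Sertoli-like (3.35 to 5.72) and 5.04 CPM in Leydig-like cells (3.37 to 7.23), and so was read in the same pair of classes as *Cst8* at a far lower level. *Cstl1*, at an end of the block, had 0 UMIs in the kept cells, and *Cstdc2*, between *Cst9* and *Cst3*, had 9.

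In the beta-defensin block, *Defb19* and *Defb36* stood almost alone. *Defb45*, which lies between them, had 10 UMIs, all in Sertoli-like cells (0.775 CPM). *Defb20* had 25 of its 27 UMIs in germ-like cells. *Defb25*, next to *Defb36*, had 40 UMIs, of which 24 were in interstitial-like and 0 in Sertoli-like cells. *Defb21*, *Defb22*, *Defb26* and *Defb29* had 0 UMIs, *Defb28* had 3 and *Defb23* had 1.

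**Figure D5:**
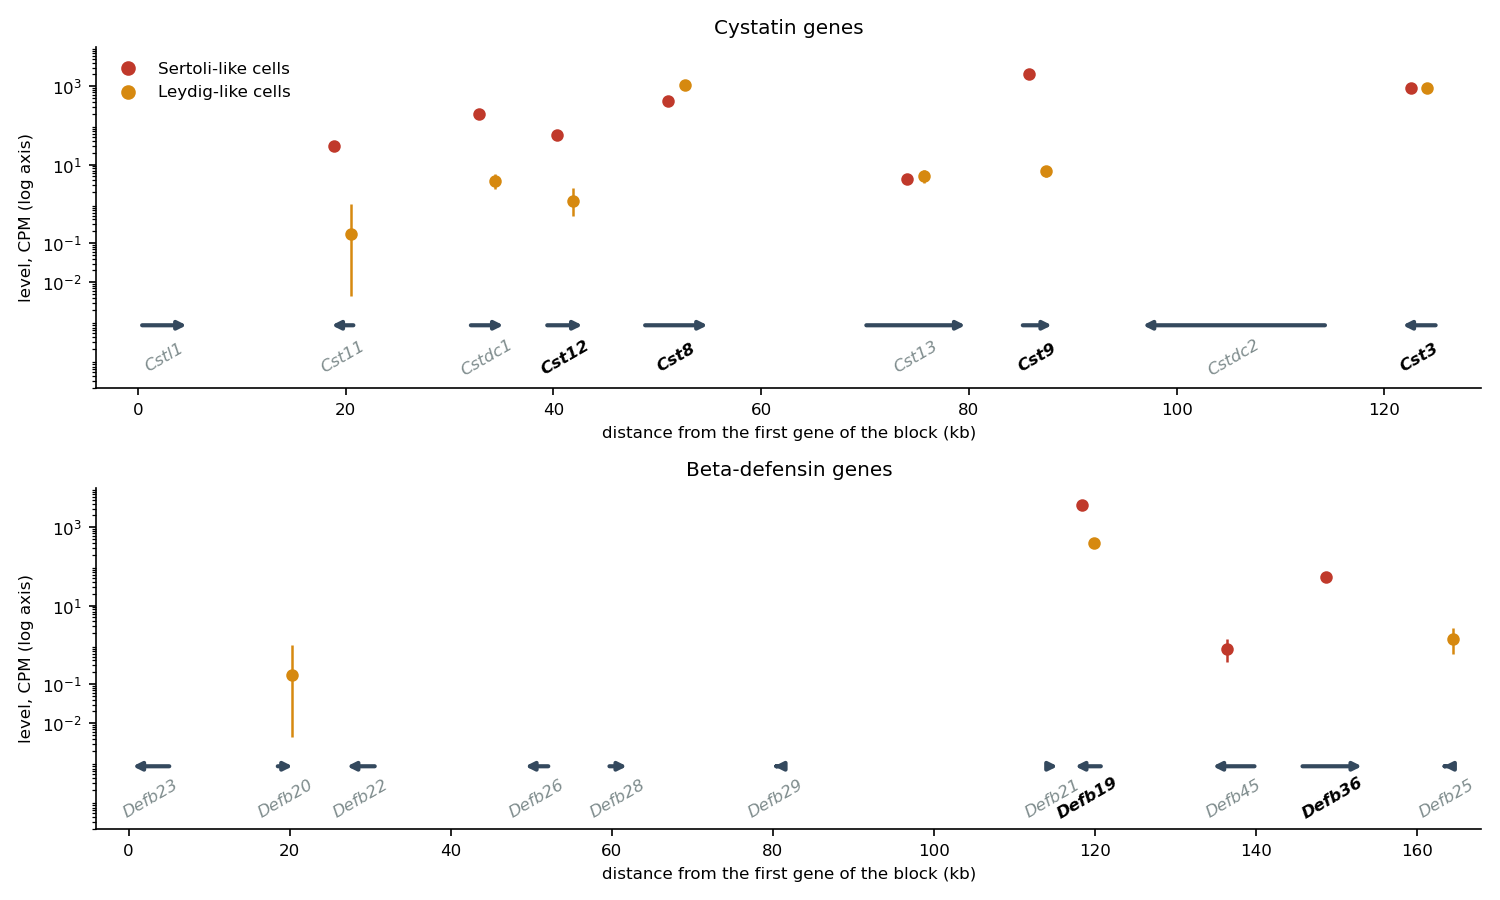
Genes of the cystatin block and the beta-defensin block drawn to scale as arrows in the direction of transcription (distance from the first gene in kb; members in bold black), with the level of each in Sertoli-like and Leydig-like cells in CPM on a log axis and bars for the exact Poisson 95% interval. Genes with no point had 0 UMIs in the class or fewer than 10 UMIs in all kept cells; *Cstdc1* at 191 CPM and *Cst11* at 29.8 CPM stood with the members in Sertoli-like cells, and *Cstl1* had 0 UMIs.

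Over the whole families, 10 of the 18 other cystatin genes in the matrix had at least 10 UMIs, 4 had 1 to 9 and 4 had 0. Of the 40 other beta-defensin genes, 4 had at least 10 UMIs, 9 had 1 to 9 and 27 had 0. Apart from the block genes, *Stfa1*, *Stfa2l1*, *Stfa3*, *Cstdc4*, *Cstdc5* and *Cst7* had nearly all of their UMIs in immune-like cells, but each in few of the 36 cells. The shares of cells ran from 5.56% for *Stfa2l1* to 22.2% for *Cst7*. *Stfa1*, an intracellular stefin, stood at 1317 CPM there with 725 of its 730 UMIs, in 19.4% of the cells. *Cst6* had 17 UMIs scattered over classes.

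*Defb42*, on chromosome 14, was another beta-defensin with most of its UMIs in Sertoli-like cells. It stood at 26.7 CPM (23.9 to 29.6) in Sertoli-like cells, which held 88.9% of its UMIs. In the 17 unnamed cells of cluster 15, led by *Pax8* and with 2 of 4 rete testis markers, it stood at 69.1 CPM (37.8 to 116) and was read in 52.9% of cells. *Cst9* in that cluster was 48 UMIs, of which 47 were in 3 cells.

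Another unnamed cluster carried some members at Sertoli-like levels and others not. The 61 cells of cluster 11 were shallow, with a median of 3116 UMIs, and their Sertoli markers fell short of the naming rule. They had *Cst9* at 2055 CPM and *Cst8* at 416 CPM, close to the Sertoli-like levels of 2051 and 417 CPM. Lower than in Sertoli-like cells, with intervals that did not overlap, were *Defb19* at 2731 CPM (2519 to 2957), *Cst3* at 703 CPM (597 to 822) and *Cst12* at 17.9 CPM (4.88 to 45.9). *Cstb* was higher at 193 CPM (139 to 259), and *Defb36* was 89.6 CPM (54.7 to 138), which overlapped the Sertoli-like interval. *Amh* was 0.336 UMIs for each *Cst9* UMI there (0.278 to 0.404), against 0.967 in Sertoli-like cells.

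The cysteine proteases listed as possible targets of cystatins had their own cell types. Whether the members bind any of them was not tested. *Ctsl*, a lysosomal protease, was the one highest in Sertoli-like cells by a wide margin: 4669 CPM (4632 to 4706), with 80.7% of its UMIs, against 537 CPM in Leydig-like cells. Immune-like cells had the highest level of *Ctsb* (1285 CPM), *Lgmn* (738), *Ctss* (667), *Ctsc* (574), *Ctsz* (511) and *Ctsh* (396), and were also the class highest for *Cst3* and *Cstb*. In Sertoli-like cells these stood at 172 CPM for *Ctsb*, 154 for *Ctsz*, 153 for *Ctsh* and 114 for *Lgmn*, and *Ctss* had 0 UMIs. *Ctsf* was highest in Leydig-like cells at 169 CPM, and *Ctsw* in germ-like cells at 19.1 CPM. *Ctso* stood at 21.3 CPM in Sertoli-like and 22.3 CPM in endothelial-like cells, and *Ctsk* at 9.85 CPM in Sertoli-like cells and 29.6 CPM in cluster 10. Of the receptors named for beta-defensins, *Ccr6* had 7 UMIs in Sertoli-like cells, and *Ccr2* had 191 of its 193 UMIs in immune-like cells.

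Likeness of pattern was measured as Pearson's r of log2(CPM + 5) over the 16 clusters, among 10222 genes with at least 20 CPM in a cluster; the clusters share 1 library, and nothing is read from it about function or control. The genes most like *Cst9* were *Tesc*, *Mt3*, *Aard*, *Tmem114* and *AU015836*, with r from 0.991 to 0.985. For *Cst12* they were *Sox8*, *Shbg*, *Map7d3*, *Cemip* and *Zar1*, led by *Sox8*, a transcription factor of SCs, at 0.985. *Defb36* was most like *Etd*, *Hsbp1l1*, *Cst11*, *Tgfbr3l* and *Pnmt*, and *Cst11* of the cystatin block reached an r of 0.979.

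The genes most like *Cst8* were *Inha*, *Aldh1a1*, *Pak3*, *Nr0b2* and *Gm826*, with an r of 0.969 for *Inha*, which encodes the alpha subunit of inhibin. Those most like *Defb19* were *2200002J24Rik*, *Smpx*, *Ctrb1*, *Gm826* and *Rnd2*, so that *Gm826* was in the lists of both *Cst8* and *Defb19*. *Gm826* was itself low, at 22.8 CPM in Sertoli-like and 16.3 CPM in Leydig-like cells. *Cst3* (*Mknk1*, *Rora*, *Npl*, *Rilpl2* and *Tpp1*) and *Cstb* (*Nars*, *Uck1*, *Vwa5a*, *Nudt16l1* and *Cmtm7*) had lower leading values of 0.892 and 0.850.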

How the data were processed

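Single-cell RNA of 1 control library (10x Genomics 3′ v3) was read from a matrix of whole-number UMI counts per gene and barcode, deposited by the authors after Cell Ranger (versions 3.0.2 and 3.1.0 in the submitters' processing notes, another in the methods) on mm10/GRCm38 joined to YFP. The members and lists were chosen with earlier results of these data known. The matrix held 5421 barcodes and 72595083 UMIs, with 0 columns of unmapped samples. Barcodes with fewer than 200 genes (372) and 204 doublets, called from simulated doublets at a rate of 4.04%, were removed, as were cells beyond 3 median absolute deviations, which left 3815 cells and 54096169 UMIs. Cells were clustered in R 4.3.3 with Seurat 5.3.0 and sctransform 0.4.2 (30 components, resolution 0.8, cell cycle and mitochondrial share regressed out), without cystatin and beta-defensin genes. A cluster took the name of a class when its markers were on average at least 1 higher on the log2 scale than in other clusters, with at least 3 markers in at least 25% of cells.

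UMIs were summed per class and scaled to CPM with exact Poisson intervals; shares had Clopper-Pearson intervals, as read and after thinning each cell to 5000 UMIs (Python 3.11.15, numpy 2.4.6, scipy 1.17.1). A count of 0 allows up to 3 counts. Doublets could raise shares of a gene in another class. Free RNA could give low shares in any class, and its part was not tested. No test was made, since cells of 1 library are not replicates. Besides the 7 members, the genes named were the cystatin and beta-defensin genes with at least 10 UMIs, the listed cysteine proteases with at least 10 CPM in a class, *Ccr6* and *Ccr2*, the 5 genes most like each member, and *Amh*, *Ptgds*, *Sox9*, *Dhh* and *Clu* as comparators. *Cyp17a1*, *Insl3*, *Star*, *Cyp11a1* and *Nr5a1*, the block genes under 10 UMIs and the motifs were added after values were seen. The comparators, *Sox8* and *Aard* were also Sertoli naming markers, and *Cyp17a1*, *Insl3*, *Star* and *Cyp11a1* were also Leydig naming markers. Gene positions and transcripts came from GENCODE (GRCm38). The scripts were tested on simulated data. Alternatives changed the cell filters, doublet removal, clustering, class naming, thinning and scaling.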

Additional observations from a re-analysis of the deposited data

Results flagged for a closer look

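The 372 barcodes with fewer than 200 genes were left out of every comparison, and 4 members had more UMIs there than the 3 that a count of 0 allows. *Defb19* had 26 UMIs, *Cst9* had 12, *Cst3* had 10 and *Cstb* had 6, among 1409901 UMIs in these barcodes, of which 46.8% were of hemoglobin genes and 49.2% of mitochondrial genes. *Cst8* had 3, *Defb36* had 1 and *Cst12* had 0.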

How the results depend on the processing

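Under 14 alternatives, 270 values were recomputed; 216 stayed within their counting interval (for Spearman's rho, which has none, within 0.1, for the Fano factor within 10%, and for the number of cells within 1.5 times), 54 moved by more and 0 changed direction. The cause of each move was not tested. Not all of the values could move or change direction. The Sertoli-like class was a single cluster, so keeping only its largest cluster changed nothing. Leaving out erythroid-like cells could change a gap only where they came next. Shares, Fano factors and cell numbers have no direction. The *Cst8* and *Defb19* gaps to Leydig-like cells entered with both signs. The gap of *Cst12* counted as moved, though it fell to 0.079 (-0.36 to 0.55) with each cell classed by itself. With 5 median absolute deviations, the Sertoli-like level of *Cst9* against the next class, 3.21 as reported on the log2 scale, was 2.31, with immune-like cells next; it was 5.58 with no outlier filter, 3.79 with no doublet removal, 3.72 with cystatin and beta-defensin genes in the clustering, 3.89 with log-normalized counts, 2.25 with each cell classed by itself and 7.11 without erythroid-like cells, an alternative chosen after seeing the data. For *Defb19*, reported as 3.17, it was 2.89 with 5 deviations, 2.89 with no outlier filter, 2.74 with no doublet removal, 3.00 with log-normalized counts, 2.23 with each cell classed by itself and 3.51 with the mean of the cells' own CPM. For *Cst8* in Leydig-like over Sertoli-like cells, reported as 1.40, the values were in the same order 1.62, 1.61, 1.71, 1.59, 1.66 and 1.08. At 3000 UMIs the Sertoli-like share was 97.1% for *Cst9*, 98.5% for *Defb19* and 95.8% for both; with 5 deviations *Defb19* reached 100% and both 99.8%, and with no doublet removal *Defb19* reached 100%. The Fano factor of *Cst12* ranged from 2.01 to 2.42 and that of *Defb36* from 1.16 to 1.64, both lowest at 3000 UMIs. No paired analysis was possible because there is 1 library. Counting cluster 11 as Sertoli-like was also chosen after seeing the data. Depth limits the shares of *Cst12*, *Defb36* and *Cstb*, whose Sertoli-like shares at 3000 UMIs were 11.1%, 11.3% and 23.1%.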
